A study of Mus musculus with 4 samples.

Results

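Pulmonary surfactant is the lipid and protein film that keeps alveoli open, and 10 genes of its making and storage are described here across 4 microarrays: Sftpa1, Sftpb, Sftpc, Sftpd, Abca3, Lpcat1, Napsa, Lamp3, Slc34a2 and Muc1. They were found by gene name, or by an older name whose accession leads to the same gene, among 27340 genes named on the array, and 19 of the 41174 probes belong to them. The first 9 are genes of the surfactant proteins, of the lamellar body that stores surfactant, and of the phosphate and lipid supply of the cell, and Muc1 is a membrane mucin carried by the same cell.

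Gene expression was measured with 1-colour Agilent arrays in total RNA of alveolar type II (AT-II) cells sorted by flow cytometry from dissociated lungs of female mice (per the labels), with 1 array in each of 4 groups. The groups were Tlr3-deficient (Tlr3-/-) mice 2 weeks after a subcutaneous injection of Lewis lung carcinoma cells, Tlr3-deficient mice without tumor cells, wild-type (WT) mice with the tumor, and WT mice without it. Lewis lung carcinoma is a transplantable mouse lung tumor line, and Tlr3 encodes Toll-like receptor 3, a sensor of double-stranded RNA. The 4 groups share the sort, the sex in the labels and the lung as tissue, while strain, age, the deleted part of Tlr3 and the number of mice behind an array are not given in the sources used here.

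AT-II cells make surfactant, pack it into lamellar bodies and release it into the alveolar fluid. Most of surfactant is phospholipid, made from fatty acids and choline in the endoplasmic reticulum and loaded into lamellar bodies by ABCA3. The small hydrophobic proteins SP-B (Sftpb) and SP-C (Sftpc) are cut from larger precursors on the way to the lamellar body and spread the lipid into a film, whereas SP-A (Sftpa1) and SP-D (Sftpd) are collectins, soluble lectins that bind microbes and help to regulate the surfactant pool.

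The arrays read each gene through probes of 60 bases, and 7 probes are printed because each lies on a known part of its protein's code. Positions are those of the array files (mm9), and the span covers an intron where it exceeds the probe. The Sftpa1 probe (chr14:41947507-41947566, plus strand) lies in the code of the lectin end of SP-A. The Sftpb probe (chr6:72257183-72259754, plus strand) covers the beginning of the mature SP-B peptide, with cysteine codons in capitals. The Sftpc probe (chr14:70920899-70921159, minus strand) is shown up to the stop codon, in capitals. The Abca3 probe (chr17:24520957-24521419, plus strand) lies at the beginning of the first ATP-binding part of the transporter. The Lamp3 probe (chr16:19655568-19673497, minus strand) and the Napsa probe (chr7:51840710-51841119, plus strand) are in coding sequence, each with a cysteine codon in capitals. The Muc1 probe (chr3:89035103-89035260, plus strand) lies in the SEA domain, where the mucin is cleaved, with a consensus for N-linked glycosylation in capitals.
Sftpa1: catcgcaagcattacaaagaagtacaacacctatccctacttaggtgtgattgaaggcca
Sftpb: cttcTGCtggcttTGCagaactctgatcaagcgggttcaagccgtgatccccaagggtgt
Sftpc: ggagagctaccactctactatatcTAG
Abca3: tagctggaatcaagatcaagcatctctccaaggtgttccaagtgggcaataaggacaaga
Lamp3: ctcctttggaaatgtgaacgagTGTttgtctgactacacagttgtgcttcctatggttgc
Napsa: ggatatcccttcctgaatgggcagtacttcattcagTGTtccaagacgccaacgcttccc
Muc1: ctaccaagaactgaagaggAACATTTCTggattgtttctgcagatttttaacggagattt

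Levels are log2 of the processed intensity minus the 75th percentile of the array, so a level of 0 means as bright as that percentile, and levels of different probes are not compared. Differences are given as tumor minus no tumor and as Tlr3-deficient minus WT, in log2 units, and 2-fold or more in either direction is counted as called. With 1 array in each group no test was possible and no difference below has a replicate check. The scanner software's own error for a spot gives 0.20 for a difference and 0.29 for a difference between the tumor changes of the genotypes. Probes printed as several spots give a second measure: between spots of one probe the tumor difference had an SD of 0.111 in Tlr3-deficient mice and 0.287 in WT mice, and the genotype difference one of 0.113 with the tumor and 0.293 without it. Neither error covers the spread between animals.

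The 75th percentile of intensity was 904 and 758 in Tlr3-deficient mice with and without the tumor, against 796 and 555 in WT mice with and without it. Between 61.0% and 65.45% of spots were well above background. The E1A control spots, in log2 over that percentile, were at 0.21 and 1.14 in Tlr3-deficient mice with and without the tumor. In WT mice with and without it they were at 1.13 and 1.68. The scaling to the percentile was not checked against these controls. None of the spots of the 10 genes was saturated. The WT array without tumor stood apart: between its repeated spots the SD of the WT tumor difference was 0.341 in array columns 1 to 51 and 0.118 in columns 52 to 85, and the SD of the genotype difference without the tumor was 0.346 and 0.131 in the same columns. Sizes given below in SDs of repeated spots use the SD of the probe's own part of the array. The tumor difference in WT and the genotype difference without tumor share that array. Both probes of Tlr3 were lower in Tlr3-deficient than in WT mice with the tumor, by -1.35 and -1.26, although still well above background in both groups (log2 levels of -5.30 and -5.36 in Tlr3-deficient mice, against -3.94 and -4.10 in WT mice). Without the tumor neither was well above background in Tlr3-deficient mice while both were in WT mice. The array labelled Tlr3-deficient without tumor carried Y-linked signal although labelled female: 4 of 4 Y-linked genes were well above background there and 0 of 4 on each of the others, and the log2 level of Xist was -4.05 there against 3.80, 4.04 and 4.05. Only the WT tumor difference and the genotype difference with the tumor are free of that array.

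Each of the 10 surfactant and lamellar body genes was well above background in all 4 groups, and none was 2-fold apart in any comparison when read by its brightest probe. With the tumor, 0 of 10 were called in Tlr3-deficient mice, where 8.47% of 17862 genes tested were, and 0 of 10 in WT mice, where 7.25% of 17712 were. Between genotypes, 0 of 10 were called with the tumor, beside 5.56% of 18105 genes, and 0 of 10 without it, beside 8.27% of 17430. For the tumor change in Tlr3-deficient minus that in WT mice the count was again 0 of 10, beside 6.62% of 15677 genes well above background on all 4 arrays. At these background shares, a count of 0 in 10 genes is not set apart from the array as a whole. The largest size among the 10 was 1.36-fold for the tumor in Tlr3-deficient mice, 1.53-fold for the tumor in WT mice, 1.42-fold between genotypes with the tumor and 1.71-fold between genotypes without it.

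**Figure D1:**
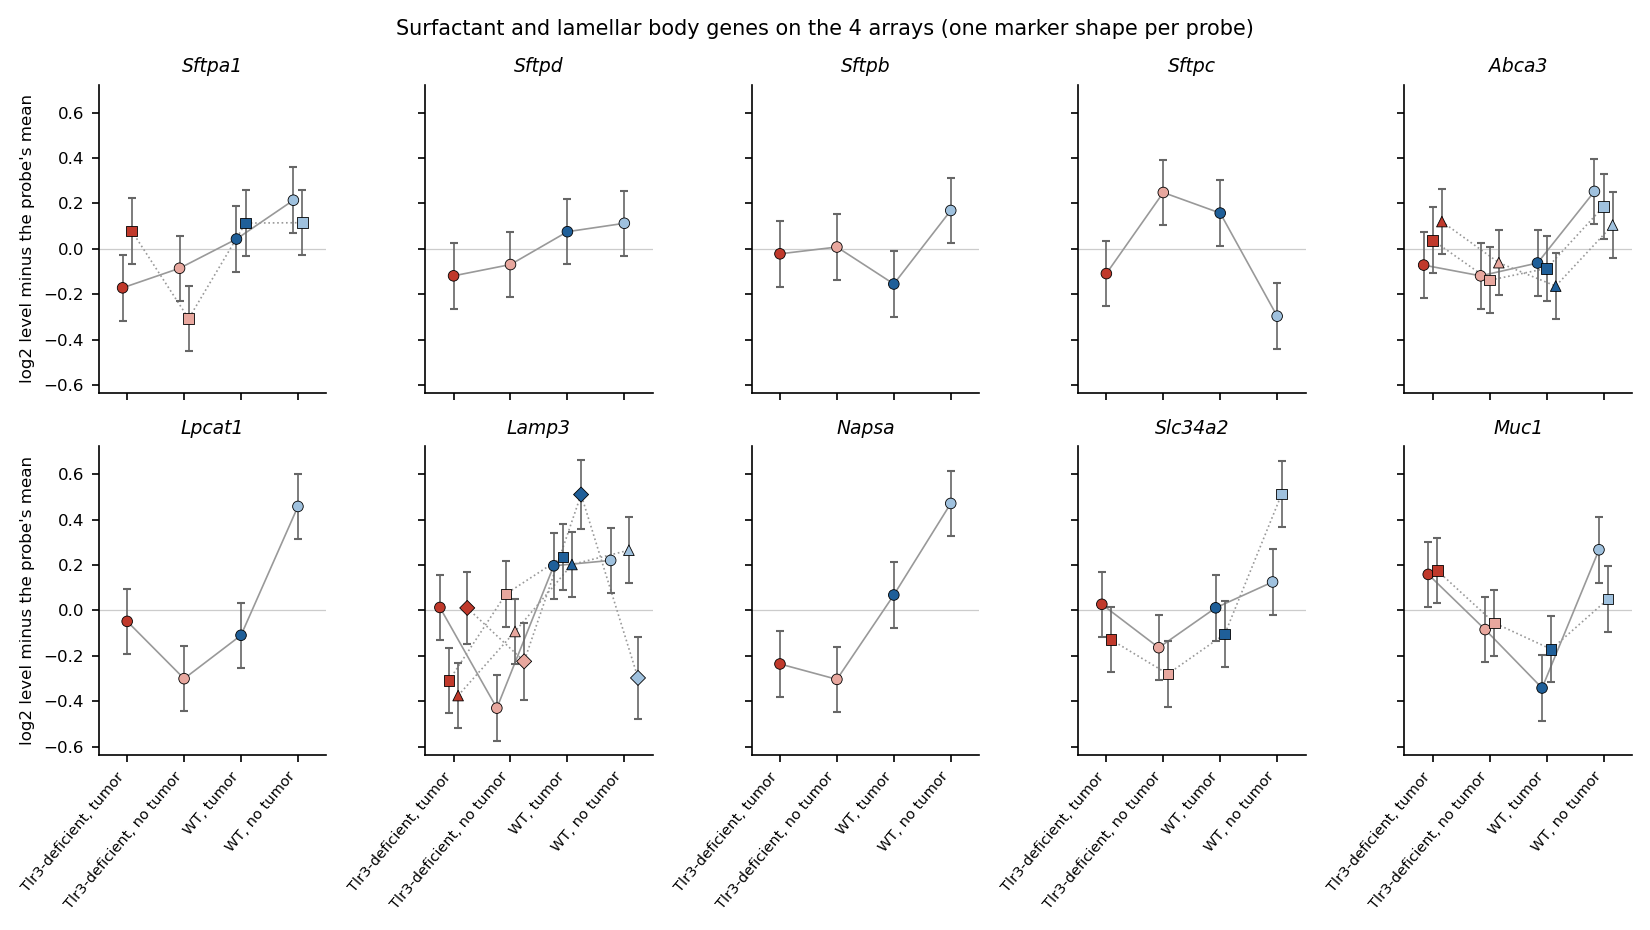
Log2 level of 18 probes of the 10 genes (the Abca3 probe dim on 3 arrays is left out) minus that probe's own mean over the arrays (vertical axis), for Tlr3-deficient tumor, Tlr3-deficient no tumor, WT tumor and WT no tumor from left to right, with 1 panel per gene, 1 marker shape per probe (circle: the brightest probe, solid line) and bars for the scanner software's error. Muc1 is lowest in WT mice with the tumor in both probes, Sftpc is lowest in WT mice without it, and Napsa is highest there.

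Among the surfactant proteins the hydrophobic pair differed in pattern. Sftpb, read by 1 probe in column 83, had log2 levels of 7.19 and 7.22 in Tlr3-deficient mice with and without the tumor, against 7.06 and 7.38 in WT mice with and without it. WT mice without tumor were highest and WT mice with tumor lowest, and the levels of the Tlr3-deficient mice lay between them within the scanner error of each other. The tumor difference was -0.030 in Tlr3-deficient and -0.32 in WT mice, the second being 2.75 times the SD of repeated spots in the right columns.

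Sftpc, the most specific marker of AT-II cells, had log2 levels of 9.03 and 9.39 in Tlr3-deficient mice with and without the tumor, against 9.30 and 8.84 in WT mice with and without it. Its tumor differences had opposite signs, -0.36 in Tlr3-deficient and 0.45 in WT mice, which makes a difference between the tumor changes of -0.81. Between genotypes it was lower in Tlr3-deficient mice with the tumor (-0.27) and higher in them without it (0.54). The order of the arrays was Tlr3-deficient without tumor, WT with tumor, Tlr3-deficient with tumor and WT without tumor, with the first pair and the last pair each within the scanner error of each other. The probe lies in column 28. The 77 spots around it had a median WT tumor difference of 0.33, which leaves 0.13 for Sftpc above its surroundings, and the value of 0.45 was 1.33 SDs of repeated spots, that of 0.54 between genotypes without the tumor 1.57 SDs. The scanner software's trend division, which evens out brightness over the slide, had itself moved the Sftpc value by 0.49, and without that division the WT tumor difference was 0.93. In Tlr3-deficient mice the spots around it had a median of -0.045, and the Sftpc difference of -0.36 was 3.33 SDs. After quantile normalization and in the submitters' value table Sftpc had the same value in both Tlr3-deficient arrays and in the WT array with tumor. Its tumor difference in Tlr3-deficient mice and its genotype difference with the tumor were therefore 0 there. Quantile normalization gives equal ranks equal values, so its zeros show an equal rank and not an equal level. The normalization of the value table is unknown, so its zeros are not counted as a second check.

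The collectins showed small differences. Sftpd, with 1 probe, had log2 levels of 8.20 and 8.25 in Tlr3-deficient mice with and without the tumor, against 8.39 and 8.43 in WT mice with and without it. Both Tlr3-deficient levels lay below both WT levels, by -0.19 with the tumor and -0.18 without it, but each of these is within the scanner error (1.52 and 0.53 SDs of repeated spots), and the values were -0.034 and 0 after quantile normalization. How many genes on the array share this order was not counted. The 2 probes of Sftpa1 were not alike: A_52_P24439 had log2 levels of 8.24 and 8.32 in Tlr3-deficient mice with and without the tumor, against 8.45 and 8.62 in WT mice. The other, A_51_P129491, had 6.67 and 6.28 in Tlr3-deficient mice with and without the tumor, against 6.70 in both WT groups. Both probes were lower in Tlr3-deficient than in WT mice without the tumor, by -0.30 and -0.42 (2.28 and 1.22 SDs of repeated spots), while the tumor difference in Tlr3-deficient mice was -0.086 in the first probe and 0.39 in the second.

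The lipid genes among the 10 are Abca3 and Lpcat1, and neither was 2-fold apart by its brightest probe. Abca3, the lipid pump of the lamellar body membrane, had log2 levels of 4.96 and 4.91 in Tlr3-deficient mice with and without the tumor, against 4.97 and 5.28 in WT mice with and without it. WT mice without tumor were above the other 3 groups, which lay within the scanner error of each other. The WT tumor difference was -0.32 in this probe and -0.27 in each of the other two probes measured on all arrays, and all 3 lie in the right columns, where these values are 2.28 to 2.67 SDs of repeated spots. In Tlr3-deficient mice the same probes gave 0.047, 0.18 and 0.18. The remaining Abca3 probe was well above background on the WT array without tumor alone: it was at least 2.13-fold lower with the tumor in WT mice and at least 1.89-fold lower in Tlr3-deficient mice without the tumor, a larger difference than the other probes gave, and it lies in column 9.

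Lpcat1, the acyltransferase that remodels phosphatidylcholine into the saturated form typical of surfactant, had log2 levels of 4.79 and 4.54 in Tlr3-deficient mice with and without the tumor, against 4.73 and 5.30 in WT mice with and without it. The tumor difference was 0.25 in Tlr3-deficient and -0.57 in WT mice, the difference between them was 0.82, and the genotype difference without the tumor was -0.76. The WT tumor difference was 1.66 SDs of repeated spots and the genotype difference 2.19 SDs. The WT tumor difference, the difference between the tumor changes and the genotype difference rest on the single high array, WT without tumor. The probe lies in column 10, where the spots around it had a median WT tumor difference of -0.31, so that -0.25 remains for Lpcat1. Without the trend division the WT tumor difference was -0.11, and the genotype difference without the tumor -0.25. The size of the WT tumor difference of Lpcat1 varied with how brightness over the slide is treated. The sign of that difference was negative in all 10 settings run. Of these, the settings that average probes or keep outlier spots leave a gene with 1 probe unchanged.

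Processing of the protein precursors and the lamellar body membrane were represented by Napsa and Lamp3. Napsa, the aspartic protease napsin A that helps to cut the SP-B precursor, had log2 levels of 6.67 and 6.60 in Tlr3-deficient mice with and without the tumor, against 6.97 and 7.38 in WT mice with and without it. Both Tlr3-deficient levels lay below both WT levels. The genotype difference was -0.30 with the tumor and -0.77 without it, 2.38 and 2.24 SDs of repeated spots in the left columns, and the second ran between -0.87 and -0.57 over the settings. The tumor difference was 0.068 in Tlr3-deficient and -0.40 in WT mice, the second being 1.18 SDs.

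Lamp3, a lysosome-related membrane protein of the lamellar body (DC-LAMP), had 4 probes. The brightest, A_52_P142807, had log2 levels of 7.25 and 6.81 in Tlr3-deficient mice with and without the tumor, against 7.44 and 7.46 in WT mice with and without it. A_52_P104593 had 4.82 and 5.10 in Tlr3-deficient mice with and without the tumor, against 5.40 and 5.46 in WT mice. In both probes the Tlr3-deficient levels lay below the WT levels, and the share of all genes with this order was not counted. With the tumor, Tlr3-deficient mice were lower than WT mice in all 4 probes, by -0.18, -0.54, -0.58 and -0.50. These are sizes of 2.19 to 6.90 SDs of repeated spots. The first value, from the brightest probe, is within the scanner error. The last is from A_52_P54647, assigned to a different transcript than the other probes. Its log2 levels with the tumor were -3.24 in Tlr3-deficient and -2.74 in WT mice. The lower sign held in all 11 settings for the gene, some of which leave its value unchanged. For the tumor in Tlr3-deficient mice the probes disagreed: they gave 0.44, -0.38, -0.28 and 0.24, so no direction of that change is given for the gene. A_51_P239376 has no value on the WT array without tumor, where the scanner software marked its spot as an outlier.

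Muc1 and Slc34a2 are on the apical membrane of the AT-II cell. Muc1 had log2 levels of 3.21 and 2.97 in Tlr3-deficient mice with and without the tumor, against 2.71 and 3.32 in WT mice with and without it, in A_52_P58208. In A_51_P467346 it had 3.16 and 2.93 in Tlr3-deficient mice with and without the tumor, against 2.82 and 3.04 in WT mice with and without it. WT mice with the tumor were lowest in both probes. The tumor difference was 0.24 and 0.23 in Tlr3-deficient mice and -0.61 and -0.22 in WT mice (5.17 and 0.65 SDs of repeated spots), and the genotype difference with the tumor was 0.50 and 0.35, sizes of 5.98 and 2.71 SDs of repeated spots. Set against the spots around each probe, the 2 probes came close to each other: -0.42 and -0.41 for the tumor in WT mice and 0.51 and 0.53 between genotypes with the tumor. The second of these does not use the WT array without tumor or the array with Y-linked signal. It ran between 0.42 and 0.56 over 11 settings, some of which leave the value unchanged. The difference between the tumor changes was 0.85 and 0.45 in the 2 probes.

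Slc34a2, the sodium phosphate cotransporter that recovers phosphate from the alveolar fluid, had log2 levels of 5.42 and 5.23 in Tlr3-deficient mice with and without the tumor, against 5.41 and 5.52 in WT mice with and without it, in A_51_P221256. In A_52_P255099 it had 5.08 and 4.93 in Tlr3-deficient mice with and without the tumor, against 5.11 and 5.72 in WT mice with and without it. Tlr3-deficient mice without the tumor were lowest and WT mice without it highest in both probes. The WT tumor difference was -0.11 in the first and -0.62 in the second (0.97 and 1.81 SDs of repeated spots), and the second lies in column 18, where the trend division had moved it by 0.50.

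**Figure D2:**
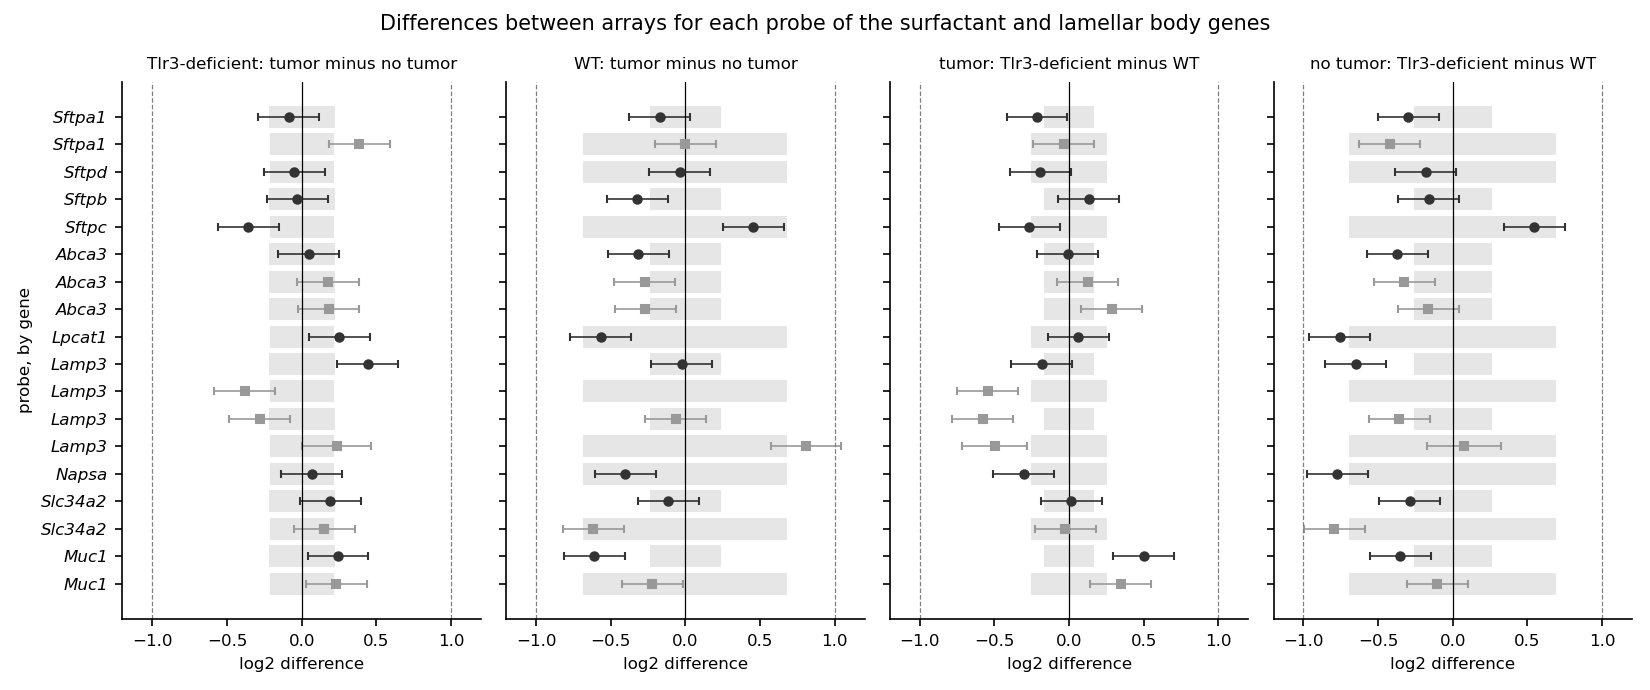
Log2 difference of each of 18 probes (rows, grouped by gene) for the tumor in Tlr3-deficient mice, the tumor in WT mice, Tlr3-deficient against WT with the tumor and Tlr3-deficient against WT without it. Bars are the scanner software's error, the grey band is 2 SDs of repeated spots in the same part of the array, and the dashed lines mark 2-fold. The band is wide for left-column probes in both panels that use the WT array without tumor, all points lie inside the dashed lines, and the Abca3 probe that was dim on 3 arrays is not drawn.

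Counted together, 4 of the 10 genes in Tlr3-deficient mice and 9 of the 10 in WT mice were below 0 with the tumor, against 2 and 5 after quantile normalization, and the difference between these counts has no test. In Tlr3-deficient mice the 10 had a median of 0.058, beside a median of -0.0084 and 51.13% below 0 over all genes tested; 0 of the 10 were below 0 in the submitters' value table. In WT mice the median was -0.24, beside 0.0003 and 49.94% over all genes. After quantile normalization Sftpa1, Sftpd, Lamp3 and Slc34a2 were at 0 or above in WT mice, and 6 of 10 genes were below 0 in the value table. Sftpb, Abca3, Lpcat1, Napsa and Muc1 were lower and Sftpc higher in WT mice with the tumor under every setting that gave them a value. Differences of at least 0.5 occurred in 0 of 10 genes for the tumor in Tlr3-deficient mice (25.04% of all genes) and in 2 of 10 for the tumor in WT mice (25.11%).

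Between genotypes, the medians and counts were as follows. With the tumor, 6 of 10 genes were lower in Tlr3-deficient than in WT mice with a median of -0.096, beside -0.045 and 56.9% over all genes, and the number was 5 with median centring and in the value table. Without it, 9 of 10 were lower with a median of -0.33, beside -0.043 and 54.71%, and the number was 8 after quantile normalization. Muc1 and Sftpd were farther from 0 with the tumor than without it, and the other 8 genes were farther without it. The comparison without the tumor and the WT tumor difference share the WT array without tumor, on which the brightest probe of each of the 9 genes other than Sftpc was at its highest, so these shifts are not separate observations. The tumor change in Tlr3-deficient minus that in WT mice was above 0 for 8 of 10 genes and below 0 for 2, with a median of 0.33. Over all genes the median was 0.019 and 48.17% were below 0. This difference uses the same array.

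**Figure D3:**
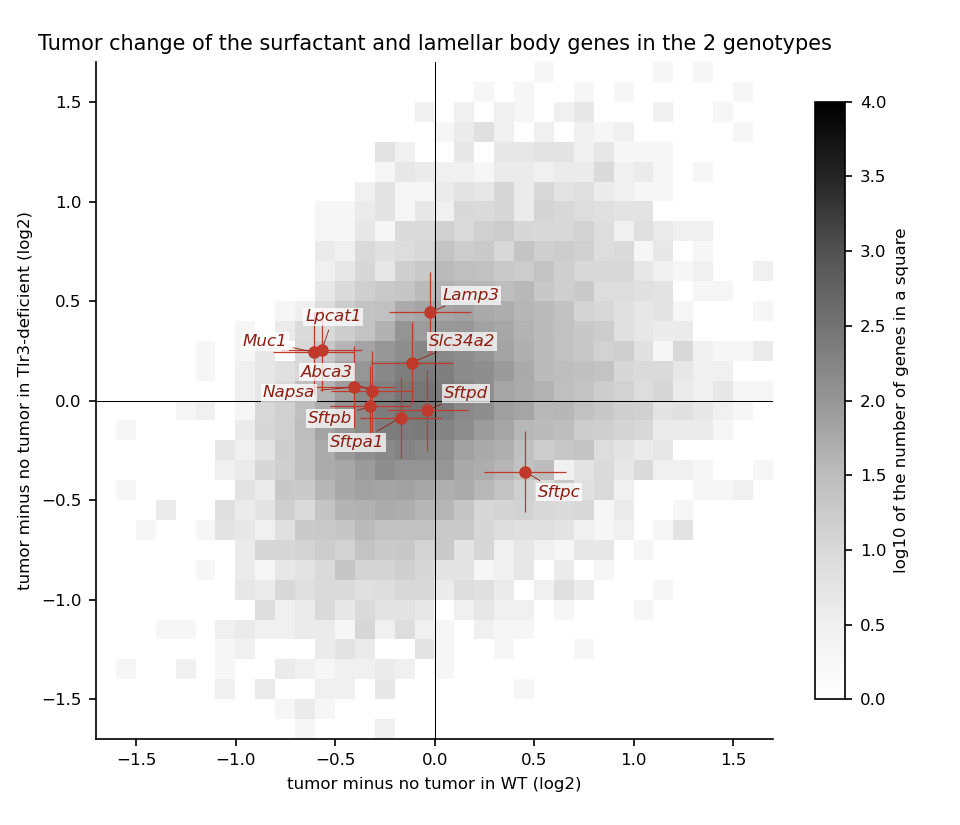
Tumor difference in WT mice (horizontal axis) against that in Tlr3-deficient mice (vertical axis), log2, for 15677 genes well above background on all 4 arrays (grey squares, shaded by the log10 number of genes; those beyond the axes are not shown) and for the 10 surfactant and lamellar body genes (red, with the scanner software's error). The 10 genes lie within 2-fold on both axes, with Muc1 and Lpcat1 at the left, Lamp3 at the top and Sftpc at the lower right, and after quantile normalization 5 of the 10 rather than 9 lie left of 0.

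The values around each spot put the WT tumor differences into proportion. With the median of 49 to 83 neighbouring spots taken off, 8 of 10 genes were still below 0 for the tumor in WT mice, 2 of 10 for the tumor in Tlr3-deficient mice, 6 of 10 between genotypes with the tumor and 9 of 10 without it. What remained for the WT tumor difference was -0.42 for Muc1, -0.26 for Napsa, -0.26 for Abca3, -0.25 for Lpcat1 and -0.23 for Sftpb. All of these are below 0.5 in size. The part of the slide's brightness in the differences was not tested beyond these values.

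**Figure D4:**
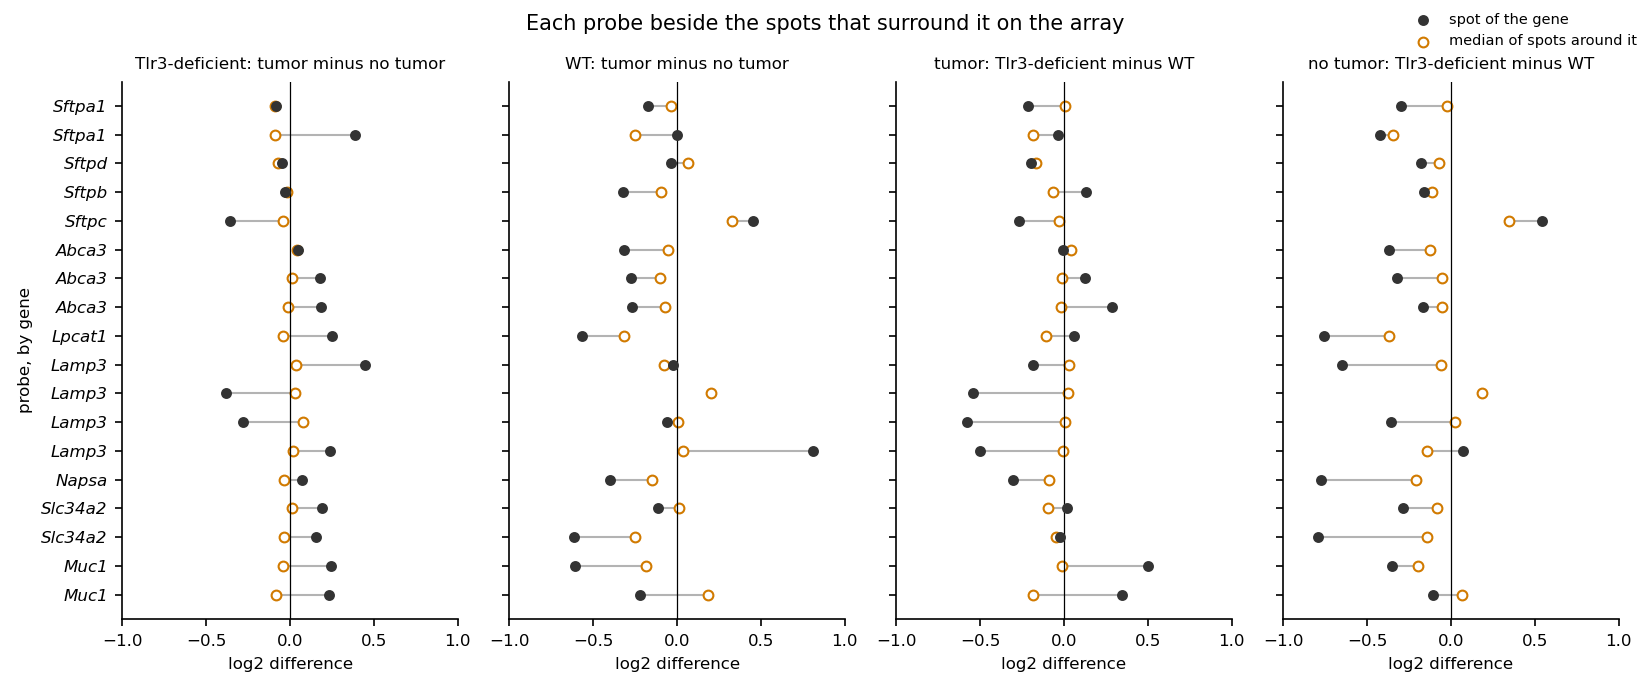
Log2 difference of each probe (dark points) beside the median of the spots within 5 rows and columns of it (open orange points), in the 4 comparisons. For the tumor in WT mice the surroundings of Sftpc are at 0.33 and those of Lpcat1 at -0.31, while for the tumor in Tlr3-deficient mice the surroundings lie near 0.

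Genes that work with these 10 were taken from lists of the surfactant pathway, with the 10 themselves left out. Of 11 genes of surfactant protein maturation and sorting, 0 were called in any comparison, and 10 of 11 were below 0 with the tumor in Tlr3-deficient mice (median -0.26) and 8 of 11 in WT mice (median -0.27). Ctsh, the cathepsin that also cuts the SP-B precursor and is named here after its values were seen, had log2 levels of 7.91 and 8.19 in Tlr3-deficient mice with and without the tumor, against 8.18 and 8.74 in WT mice with and without it. It was lower with the tumor in both genotypes, by -0.28 in Tlr3-deficient and -0.56 in WT mice.

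Of 19 genes of lamellar body biogenesis and traffic, 1 was called: Hps1, part of a complex needed for lysosome-related organelles, was lower in Tlr3-deficient than in WT mice with the tumor (-1.73), with log2 levels of -3.79 in Tlr3-deficient and -2.06 in WT mice. The list's median was 0.105 for the tumor in Tlr3-deficient mice (14 of 19 above 0) and -0.092 in WT mice (12 of 19 below 0). The 16 genes of exocytosis and its control had a median of 0.076 for the tumor in Tlr3-deficient mice and -0.090 in WT mice. Of 30 genes of phospholipid synthesis on the array, Fabp5, a fatty acid carrier, was higher with the tumor in Tlr3-deficient mice (1.05), with a difference of 0.071 in WT mice. Pcyt1b, an isoform of the rate-limiting enzyme of phosphatidylcholine synthesis, was well above background on the WT array without tumor alone, and from that array it was at least 6.73-fold lower with the tumor in WT mice and at least 5.97-fold lower in Tlr3-deficient than in WT mice without the tumor. The medians of this list were 0.135 for the tumor in Tlr3-deficient mice and -0.082 in WT mice.

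Of the 17 lipid and ion transporters on the array, Scnn1g, a subunit of the epithelial sodium channel that clears alveolar fluid, was lower with the tumor in both genotypes (-1.30 in Tlr3-deficient and -1.34 in WT mice). Atp11a, a phospholipid flippase, was higher in Tlr3-deficient than in WT mice with the tumor (1.03) and without it (1.45). Clcn3, a chloride and proton exchanger of endosomes, was higher with the tumor in WT mice (1.35) and in Tlr3-deficient than in WT mice without the tumor (1.91), both of which use the same low level on the WT array without tumor. Among 14 genes of surfactant uptake and clearance, the cytokine receptor chain Csf2rb was higher with the tumor in Tlr3-deficient (2.35) and WT mice (1.13) and lower in Tlr3-deficient than in WT mice without it (-1.48). The scavenger receptor Marco, which alveolar macrophages carry, was higher with the tumor in Tlr3-deficient mice (1.39) and in Tlr3-deficient than in WT mice with the tumor (1.65). Of 9 collectins, related lectins and lectin-associated proteases, Colec11 was higher in Tlr3-deficient than in WT mice without the tumor (1.42). Masp1, a protease, was higher in them with the tumor (1.11).

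Among 11 other mucins and glycoproteins, Muc20 was higher with the tumor in Tlr3-deficient mice (1.09). Muc5ac, a secreted airway mucin, was lower in Tlr3-deficient than in WT mice with the tumor (-1.06). Muc15 cleared background in Tlr3-deficient mice with the tumor alone, at least 3.27-fold higher than in Tlr3-deficient mice without tumor and at least 3.69-fold higher than in WT mice with it.

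A list of 29 transcription factors was drawn up for regulators of surfactant genes, and whether each member drives those genes was not tested. Those called were Hopx, also a marker of type I cells, which was lower with the tumor in both genotypes (-1.19 in Tlr3-deficient and -1.11 in WT mice), and Sox9, which was at least 6.13-fold lower with the tumor in Tlr3-deficient mice and at least 2.39-fold lower in WT mice, and was higher by 1.34 in Tlr3-deficient than in WT mice without it. NKX2-1 and the forkhead factors FOXA1 and FOXA2 are known regulators of the surfactant protein genes. Nkx2-1 had log2 levels of 3.79 and 3.66 in Tlr3-deficient mice with and without the tumor, against 3.75 and 3.60 in WT mice with and without it, a spread below the scanner error. Foxa1 differed by 0.11 with the tumor in Tlr3-deficient and 0.56 in WT mice, and Foxa2 by 0.11 in Tlr3-deficient and -0.35 in WT mice.

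Promoters of 7 of the 10 genes were found in the RefSeq table (GRCm38.p6), and the 2 that hold a core motif of these factors are printed with the 250 bases before the start site. The motif searched for NKX2-1 was CTCAAG and that for forkhead factors TGTTTGC, on both strands, and matches did not overlap in these promoters. CTCAAG was found in 2 of the 7 and in 13.3% of 32851 promoters, and TGTTTGC in 1 of the 7 and in 4.3%. In Sftpb (chr6:72304360-72304609, plus strand) CTCAAG begins 100 and 15 bases before the start site, and TGTTTGC, on the reverse strand and so read as GCAAACA, begins 88 bases before it. In Sftpa1 (chr14:41131538-41131787, plus strand) CTCAAG begins 166 bases before the start site. Capitals mark these matches, which describe the letters and not binding.
Sftpb: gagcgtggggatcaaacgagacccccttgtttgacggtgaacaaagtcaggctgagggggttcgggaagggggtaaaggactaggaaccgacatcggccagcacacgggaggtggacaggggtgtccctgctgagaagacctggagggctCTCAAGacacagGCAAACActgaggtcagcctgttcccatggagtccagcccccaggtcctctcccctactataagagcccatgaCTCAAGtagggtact
Sftpa1: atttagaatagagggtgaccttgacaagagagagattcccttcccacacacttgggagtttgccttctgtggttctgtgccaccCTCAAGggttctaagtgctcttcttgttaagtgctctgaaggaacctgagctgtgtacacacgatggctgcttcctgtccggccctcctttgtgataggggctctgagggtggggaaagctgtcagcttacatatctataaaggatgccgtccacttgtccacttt

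The labelled cell type was checked against its markers, and all 19 AT-II markers on the array were well above background on all 4 arrays. Their summed level, as a multiple of the array's 75th percentile, was 2952 and 3116 in Tlr3-deficient mice with and without the tumor, against 3402 and 3604 in WT mice with and without it. The 9 of them outside the 10 genes had medians of 0.047 for the tumor in Tlr3-deficient mice and -0.058 in WT mice, with 0 of 9 called, and -0.20 between genotypes with the tumor and -0.35 without it.

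Markers of leukocytes and neutrophils were higher with the tumor and those of type I cells lower, in both genotypes. Leukocyte markers, 6 of 6, were called higher with the tumor in both genotypes, with medians of 3.02 in Tlr3-deficient and 2.71 in WT mice, and Coro1a differed by 3.28 in Tlr3-deficient and 3.30 in WT mice. Their summed level was 7.92 and 1.37 in Tlr3-deficient mice with and without the tumor, against 8.48 and 1.50 in WT mice with and without it. Neutrophil markers were called higher in 9 of 10 tested in each genotype, with a summed level of 68.5 and 3.54 in Tlr3-deficient mice with and without the tumor, against 106.7 and 3.92 in WT mice, and S100a8 differed by 4.85 in Tlr3-deficient and 5.39 in WT mice. Type I cell markers were below 0 with the tumor in 11 of 11 genes in both genotypes, with medians of -1.08 in Tlr3-deficient and -0.73 in WT mice, and Rtkn2 differed by -1.82 in Tlr3-deficient and -1.55 in WT mice. Between genotypes the type I markers were higher in Tlr3-deficient mice, with medians of 0.34 with the tumor (0 of 11 called) and 0.89 without it (10 of 11 above 0, 4 called). Their summed level was 280.5 and 467.6 in Tlr3-deficient mice with and without the tumor, against 220.9 and 326.4 in WT mice with and without it. Markers of club cells, airway secretory cells that also make some surfactant proteins, had medians of 0.24 for the tumor in Tlr3-deficient mice, -0.42 in WT mice, -0.11 between genotypes with the tumor and -0.66 without it, the same signs as the medians of the 10 genes. Their summed level was 1106 and 1111 in Tlr3-deficient mice with and without the tumor, against 1263 and 1513 in WT mice with and without it. The remaining marker lists varied in other ways. Alveolar macrophage markers had medians of 0.95 for the tumor in Tlr3-deficient mice (4 of 9 called higher) and 0.11 in WT mice (2 of 8), and 0.75 between genotypes with the tumor and -0.41 without it. Fibroblast and pericyte markers had medians of -1.60 for the tumor in Tlr3-deficient mice (4 of 7 called lower) and -0.44 in WT mice, and -0.15 between genotypes with the tumor and 0.96 without it. Erythroid markers had medians of -0.90 for the tumor in Tlr3-deficient and 2.05 in WT mice, and -1.93 between genotypes with the tumor (5 of 5 called lower) and 0.92 without it. Endothelial markers were higher in Tlr3-deficient than in WT mice in 6 of 6 genes both with the tumor (median 0.46) and without it (0.45), and their tumor medians were -0.40 in Tlr3-deficient and -0.48 in WT mice. Ciliated cell markers had tumor medians of 0.53 in Tlr3-deficient and 0.59 in WT mice and genotype medians of -0.37 with the tumor and -0.45 without it. Plasma and B cell markers had tumor medians of 1.25 in Tlr3-deficient and 0.63 in WT mice and genotype medians of 0.41 with the tumor and -0.24 without it. The part of other cells in the differences of the 10 genes was not tested, and in sorted cells measured in bulk, fewer AT-II cells and less RNA per cell cannot be told apart.

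**Figure D5:**
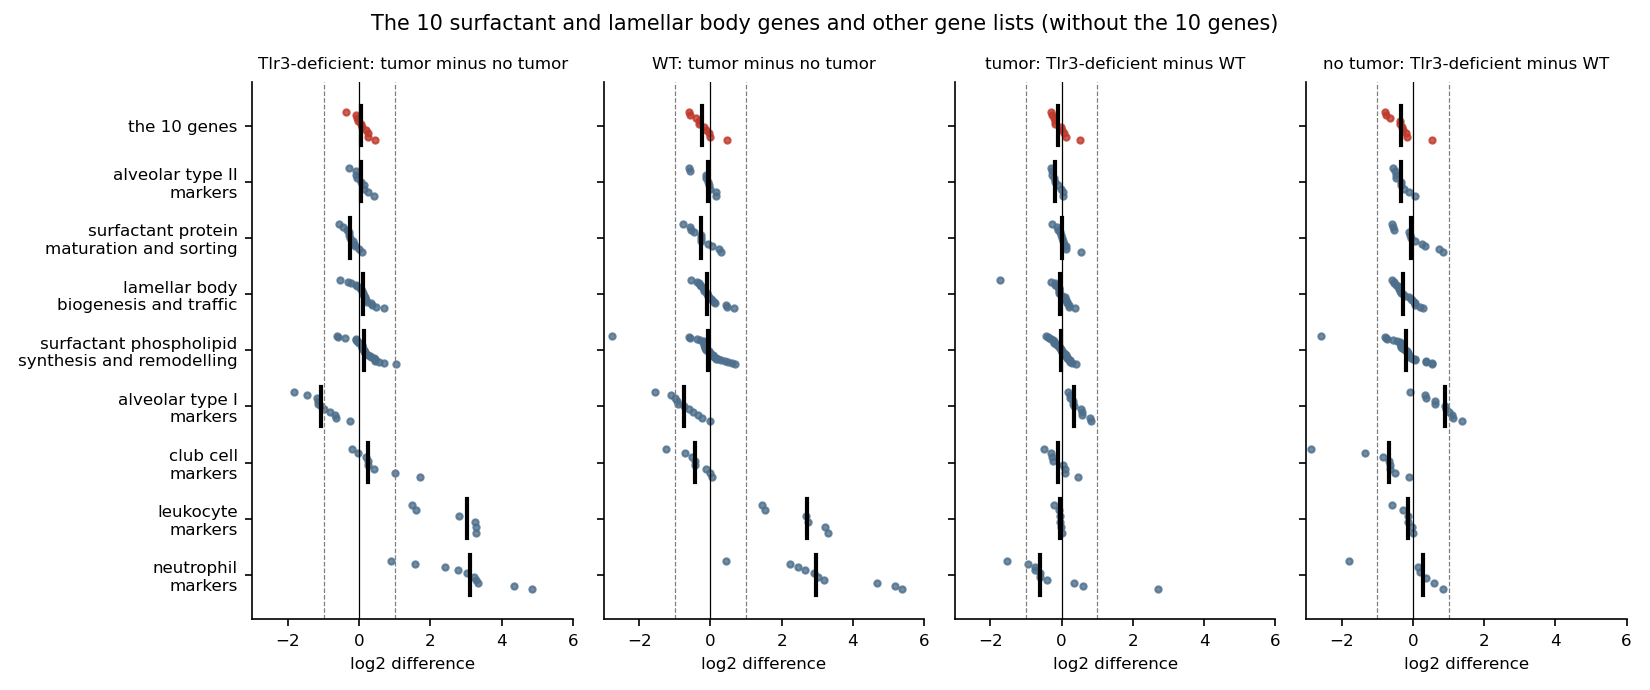
Log2 difference of each gene in the 10 surfactant and lamellar body genes and in lists of related genes and cell type markers (columns of points, bars are medians, the 10 genes left out of the other lists), for the 4 comparisons. The medians of the 10 genes and of the pathway lists drawn lie near 0. Single pathway genes lie farther out, such as Pcyt1b at -2.75 (a bound) for the tumor in WT mice. Fabp5 lies at 1.05 for the tumor in Tlr3-deficient mice. For the tumor in both genotypes, the medians of leukocyte and neutrophil markers lie near 3 and type I markers lie below 0.

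The pattern shared by the 10 genes over the arrays, taken as the median of their levels after each gene's mean was removed, was -0.060 and -0.10 in Tlr3-deficient mice with and without the tumor, against 0.027 and 0.22 in WT mice with and without it. Among 2099 genes with a mean level in the range of the 10, the closest to it were Atxn10, Gpt, ND4, Ndufa1 and Stard10, each with a mean absolute difference of 0.0206 over 4 arrays. Of the 10 themselves Sftpa1 (0.037) and Abca3 (0.038) were closest and Sftpc (0.26) farthest. This likeness rests on 4 values per gene and is a description.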

How the data were processed

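The deposited scanner files hold processed intensity per spot, background-subtracted and divided by a fitted trend over the slide by Agilent Feature Extraction 10.7.3.1 (array design 014868), per the file headers. The deposited value table, used as an alternative, holds log2 values that correlate with the scanner's log2 intensity at 0.9995 to 0.9998, so its direction is that of the scanner. A correlation does not show an equal scale. The column medians were 6.312 to 6.313, while the median scanner intensity ran from 57.6 to 100 over the arrays. The normalization and centring of the value table are unknown.

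From the intensity, log2 minus each array's 75th percentile over gene probes was computed, spots of a probe were averaged without those marked as outliers, and each gene was read by its brightest probe. A gene counted as tested if any of its probes, not only the brightest, cleared the scanner's background limit on either array. The same rule decided which genes count as well above background on an array. In a gene with several probes, the value and the clearing of the limit can therefore come from different probes. Where a gene cleared the limit on 1 side only, the fold is a bound. It was computed against the brightest probe's own signal on the dim side or that array's lowest signal past the limit, whichever was higher. Probes were named by accession (27668) or older name (459), and 33716 carried a current symbol. With 1 array a group no test was run. The 2-fold calling was run on simulated data, with changes set well past 2-fold and noise below the overall SDs of repeated spots. Recovery there was largely set by these choices and cannot show how accurate the calls are on these arrays.

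Alternatives were normexp background correction (offset 50, limma 3.58.1, R 4.3.3), quantile normalization, median centring, the value table, the mean of all probes and no filter on dim probes. Chosen after seeing the data were columns 52 to 85 alone, the mean of probes clear of background on all 4 arrays, outlier spots kept, the trend division undone, and the spots around taken off. Python 3.11.15, pandas 2.3.3, numpy 2.4.6 and matplotlib 3.10.9 were used.

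Named were the 10 genes with all probes, pathway genes 2-fold apart in any of the 4 comparisons (up to 4 a list and comparison), up to 2 examples of a marker list, and the 5 genes most like the median pattern; 1 pathway gene is not reported here. The 10 genes and the lists were chosen with earlier results of these data known. The arrays came from 3 slides, 1 of which held WT with tumor and Tlr3-deficient without tumor, so in every comparison the slide cannot be told apart from the group. The number of arrays limits the precision.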

Additional observations from a re-analysis of the deposited data

Results flagged for a closer look

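For 6 of the 10 genes the tumor difference had opposite signs in Tlr3-deficient and WT mice in every probe measured on all 4 arrays, and with 1 array a group the difference between the genotypes was not tested. As the tumor difference in Tlr3-deficient minus that in WT mice, it was 0.85 for Muc1, 0.82 for Lpcat1, 0.47 for Napsa, 0.36 for Abca3 and 0.30 for Slc34a2, and -0.81 for Sftpc. The other 4 genes were not of this kind. All 6 values use the WT array without tumor and the Tlr3-deficient array without tumor, which carried Y-linked signal. The share of all genes with opposite signs was not counted, so 6 of 10 is not set apart from the array as a whole. Sftpc, Napsa and Lpcat1 were read by 1 probe each. Several signs rest on differences that are small in SDs of repeated spots. In Tlr3-deficient mice these were 0.43 SDs for the brightest Abca3 probe and 0.63 SDs for Napsa. In WT mice the brightest Slc34a2 probe was at 0.97 SDs. Some of these signs also depend on the scaling. With quantile normalization the tumor difference of Slc34a2 in WT mice was 0.0076 and that of Abca3 in Tlr3-deficient mice was -0.019. For Sftpc in Tlr3-deficient mice it was 0, which follows from an equal rank on both arrays and cannot decide the sign.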

How the results depend on the processing

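Of 50 differences of the 10 genes, 39 kept their sign with quantile normalization and 42 in the value table. The number was 44 with the mean of all probes and 45 with the mean of probes well above background. It was 46 after taking off the spots around and 48 each with normexp, median centring and the trend division undone. With outlier spots kept (50 of 50) and among probes in columns 52 to 85 (30 of 30) no value moved, so no sign could change. For genes with 1 probe the means of probes likewise change nothing. The number of the 10 genes 2-fold apart stayed 0 in the 4 comparisons of arrays under these settings, but for the difference between the tumor changes it was 1 with normexp (Sftpc, -1.26), 1 with median centring (Muc1, 1.004) and 1 with the trend division undone (Sftpc, -1.23). The cause was not tested. Counts over all genes varied more. Normexp gave 405 higher and 327 lower genes for the tumor in Tlr3-deficient mice (811 and 702 as reported), 460 and 126 for the tumor in WT mice (1007 and 277), 245 and 183 between genotypes with the tumor (528 and 478), 501 and 237 without it (1032 and 409), and 218 higher for the difference between the tumor changes (332). With no filter on dim probes, which tests more genes, they were 1443 and 1567, 2072 and 812, 1042 and 1262, 2101 and 1020, and 1491 and 2858 for that difference (332 and 706). The value table gave 623 lower genes between genotypes without the tumor. For the tumor in WT mice 78.4% of called genes were higher as reported, 66.4% with quantile normalization and 63.7% with median centring; for the difference between the tumor changes the share was 32.0% as reported and 49.6% with median centring. Median centring shifted the median of all genes by -0.149 for the tumor in WT mice and 0.152 for the difference between the tumor changes, and normexp by -0.104 for the tumor in WT mice. No paired analysis was possible because each group has 1 array and the labels give no replicate numbers. Genes without a probe well above background on both arrays of a comparison have no measured fold.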
